A study of Rattus norvegicus with 12 samples.

Results

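The reference small RNAs of a rodent miRNA card, namely U6, snoRNA135, snoRNA202, U87 and Y1, were followed in 12 samples of rat medial entorhinal cortex. The assays were chosen by name, taking each one whose name began with U6, snoRNA, U87 or Y1. This gave 8 of the 384 wells, with 4 wells for U6 and 1 for each of the others, or 5 of 381 assays once the U6 wells of a sample were averaged. The card also held 375 miRNA assays and 1 plant control. All animals were Long Evans rats. Pups received the retrograde dye DiO in the dentate gyrus of both hemispheres on postnatal day 2, and their medial entorhinal cortex was dissociated and sorted by FACS on day 4 or 5. DiO positive cells, layer II neurons whose axons had taken up the dye, made up the stellate group (n = 5), and DiO negative cells of the same region made up the non-stellate group (n = 5). The dye marks only cells whose axons it reached, so an unlabelled stellate cell would be sorted as non-stellate. The tissue group (n = 2) was whole medial entorhinal cortex dissected on day 23, with no injection or sorting described, and was labelled as a control for comparing technologies. Non-stellate samples 3 and 5 carry a description that conflicts with their title, source and fluorescence, and values without them are given where they change. The age, the sorting, the extraction kit and the amount of RNA all differ between tissue and sorted cells and cannot be told apart.

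Small RNA cards carry reference RNAs because the input of a reverse transcription varies and the Ct of a miRNA is usually read against an RNA thought to be stable. U6 is the spliceosomal small nuclear RNA transcribed by RNA polymerase III, and it stays in the nucleus. snoRNA135, snoRNA202 and U87 are box C/D small nucleolar RNAs, also known as Snord65, Snord68 and Snord87, which are processed from introns of host genes and guide methylation of ribosomal RNA. Y1 is a Y RNA, another RNA polymerase III product, which binds the Ro60 protein and is found mostly in the cytoplasm, as mature miRNAs are. None of the 5 is made by Drosha and Dicer.

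The values are Ct, the PCR cycle at which a well crosses the detection threshold. Ct is a log2 scale, so 1 cycle earlier corresponds to about a doubling at full PCR efficiency, and undetermined wells stand at 40. All 60 member values were determined, between Ct 15.6 and 32.1. Assays differ in efficiency, so Ct was compared between samples of 1 assay, and between assays only as an order of detection. MiRNA assays with a determined Ct numbered 234 to 260 in stellate, 203 to 241 in non-stellate and 292 to 302 in tissue samples. The neuronal miRNAs miR-124, miR-128a, miR-138, miR-129-3p and miR-9 were determined in all 12 samples. So were the vascular miRNAs miR-126-3p, miR-126-5p and miR-145, and miR-143 was undetermined in 1 of 5 non-stellate samples. Relative to the median miRNA Ct, the vascular miRNAs had earlier means in stellate than in non-stellate cells, and limma called none. The means were -1.39 against -0.06 for miR-126-3p, 2.89 against 3.34 for miR-126-5p, -1.72 against -1.01 for miR-145 and 1.76 against 4.05 for miR-143. The last of these includes the undetermined well at 40. Of the neuronal miRNAs, miR-128a (-3.50 against -2.50), miR-138 (-4.43 against -3.13), miR-124 (-0.33 against 0.24) and miR-129-3p (-0.86 against -0.59) also had earlier means in stellate cells. miR-9 went the other way, at -7.79 against -8.59, and limma called none of these either. Of the oligodendrocyte miRNAs, miR-219 was undetermined in 5 of 5 stellate and 3 of 5 non-stellate samples and miR-338-3p in 2 of 5 and 5 of 5. Of the blood and microglial miRNAs, miR-451 and miR-142-5p were undetermined in all 10 sorted samples, and miR-142-3p and miR-223 were determined in all 10. All 6 were determined in tissue.

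U6 was detected earliest in each of the 12 samples and U87 next, whereas snoRNA202 came last throughout. In stellate samples 1 to 5 the mean U6 Ct was 16.82, 18.16, 19.02, 17.88 and 16.50. In non-stellate samples 1 to 5 it was 18.08, 17.74, 17.93, 18.49 and 20.23, and in tissue it was 15.96 and 15.59. The sorted groups overlapped, with non-stellate 5 latest of all, and both tissue values lay before every sorted value. The stellate mean was 17.68 ± 1.02 (SD, n = 5) and the non-stellate mean 18.49 ± 1.01 (SD, n = 5), a difference of -0.82 cycles that was within the spread between samples (exact two-sided permutation p = 0.246 over 252 splits, where the smallest possible p is 0.00794). By pairs of the same replicate number the difference ran from -3.73 in pair 5 to 1.10 in pair 3, and U6 was earlier in stellate cells in 3 of 5 pairs. Without non-stellate 3 and 5 the difference was -0.43 cycles, and with any 1 sample left out it ran from -1.15 to -0.38. A raw Ct cannot tell fewer cells in a sample from less RNA per cell.

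The U6 Ct is the only reference value with repeat wells. The 4 wells of a card had a pooled SD of 0.366 cycles, which gives the mean of 4 wells a standard error of 0.183. The well SD was smallest in tissue 1, at 0.0309, and largest in non-stellate 3, at 0.817, where the wells read Ct 18.97, 17.94, 16.98 and 17.80. Without non-stellate 3 the pooled SD was 0.292. The 4 wells sit as a square in rows A and B of the card, and the row A wells were later than the row B wells in 10 of 12 samples, by 0.348 ± 0.366 cycles (SD, n = 12). A single well in non-stellate 3 therefore lay up to 1.05 cycles from the mean of its card. The other references had 1 well each, so their well error was not measured.

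**Figure D1:**
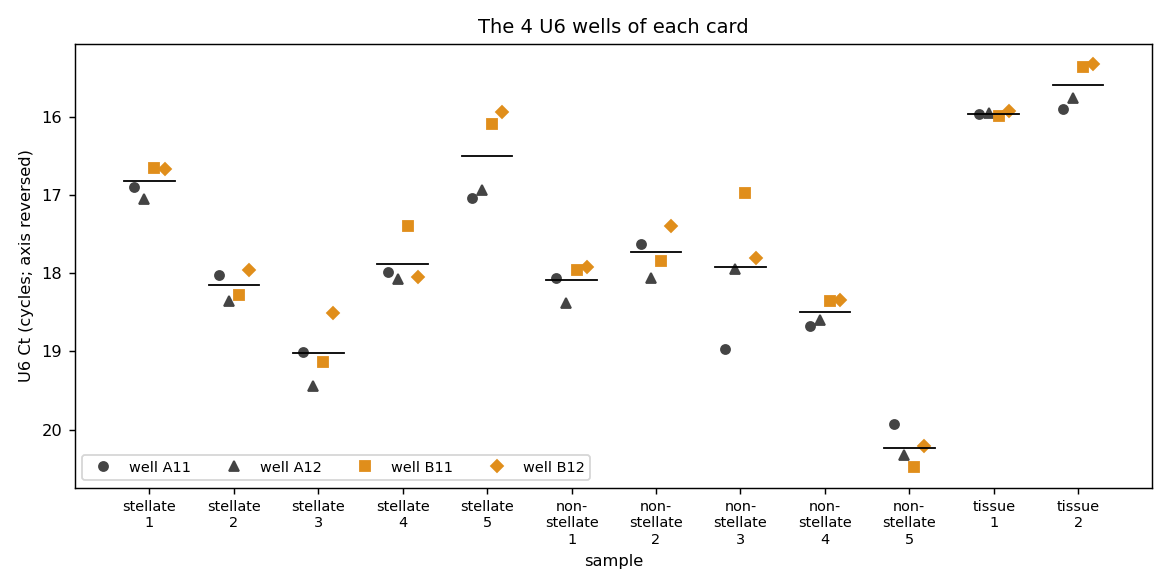
U6 Ct in cycles (reversed axis) for each well of the 12 samples, with row A wells in grey and row B wells in orange, and a line at the mean of the 4 wells. The wells of non-stellate 3 span 1.99 cycles, against 0.074 in tissue 1, and row A is later in 10 of 12 samples.

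Among the small nucleolar RNAs, snoRNA135 varied least by raw Ct. Its raw Ct in stellate samples 1 to 5 was 25.85, 25.01, 26.19, 25.02 and 25.34. In non-stellate samples 1 to 5 it was 26.02, 25.64, 26.21, 25.84 and 27.28. Stellate samples read earlier in 5 of 5 pairs, by 0.03 to 1.94 cycles. The exact sign-flip permutation p was 0.0625, the smallest that 5 pairs allow, and the groups overlapped. The means were 25.48 ± 0.521 and 26.20 ± 0.640 (SD, n = 5 each), and the difference of -0.72 cycles did not pass (exact two-sided permutation p = 0.0873). Without stellate 3, which read later than the other stellate samples, it was -0.89 cycles (exact permutation p = 0.0476), and without non-stellate 3 and 5 it was -0.35 cycles.

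U87 gave a similar picture. Stellate samples 1 to 5 read Ct 19.13, 20.19, 21.42, 19.88 and 20.44, and non-stellate samples 1 to 5 read 20.25, 20.26, 21.31, 20.94 and 22.46. Stellate 3 was the latest stellate sample and non-stellate 5 the latest of the 10, as with snoRNA135. The means were 20.21 ± 0.836 and 21.04 ± 0.912 (SD, n = 5 each), with a difference of -0.83 cycles (exact two-sided permutation p = 0.206). It was -0.27 cycles without non-stellate 3 and 5.

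snoRNA202 was detected late and was spread widely in both sorted groups. Stellate samples 1 to 5 read Ct 32.08, 29.27, 29.26, 28.60 and 30.48, and non-stellate samples 1 to 5 read 30.36, 29.39, 29.19, 28.98 and 31.93. Stellate 1, which was the earliest stellate sample for U87, was the latest of all 10 for snoRNA202. The group means were nearly equal, at 29.94 ± 1.38 and 29.97 ± 1.22 (SD, n = 5 each), and the difference of -0.031 cycles was far below the spread (exact two-sided permutation p = 0.968). Its sign turned when stellate 2, 3 or 4 or non-stellate 1 or 5 was left out, to values between 0.066 and 0.46 cycles.

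Y1 read Ct 26.06, 26.14, 25.90, 25.75 and 24.43 in stellate samples 1 to 5. In non-stellate samples 1 to 5 it read 25.01, 26.53, 26.79, 25.31 and 27.18. Stellate 5 was the earliest of the 10, and it stood 1.32 cycles before the next stellate sample. The stellate mean of 25.65 ± 0.703 and the non-stellate mean of 26.16 ± 0.952 (SD, n = 5 each) were -0.51 cycles apart, which is within their spread (exact two-sided permutation p = 0.381). Y1 was earlier in stellate cells in 3 of 5 pairs, and without non-stellate 3 and 5 the difference was 0.041 cycles.

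**Figure D2:**
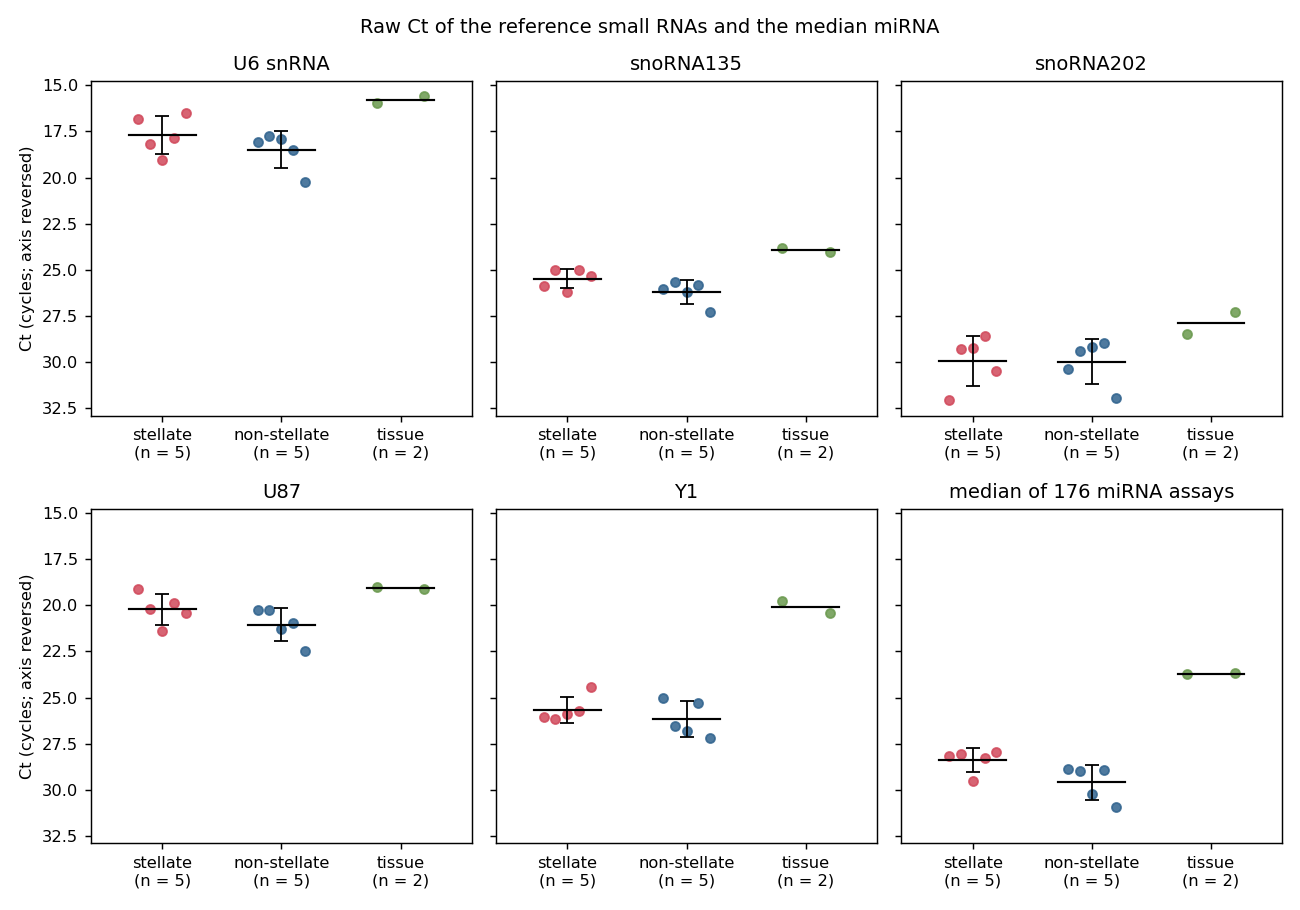
Raw Ct in cycles (reversed axis, common to all panels) of each reference small RNA and of the median miRNA by group, with points for samples, a line at the group mean and bars of 1 SD for the sorted groups. Each reference overlaps between stellate and non-stellate samples, and tissue lies before all sorted samples in every panel, by the widest gap for Y1 and the median miRNA.

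The order of detection was fixed apart from Y1. In sorted cells Y1 and snoRNA135 were neighbours that did not differ beyond their spread, with Y1 0.17 ± 0.809 cycles later in stellate and 0.04 ± 0.781 cycles earlier in non-stellate samples (SD, n = 5 each), and Y1 was the earlier of the pair in 5 of the 10. In both tissue samples Y1 preceded snoRNA135, by 4.01 and 3.65 cycles, so that the order there was U6, U87, Y1, snoRNA135 and snoRNA202.

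The median of the miRNAs was read in the same way. Over the 176 miRNA assays determined in all 12 samples, the median Ct was 28.17, 28.05, 29.51, 28.26 and 27.96 in stellate samples 1 to 5. In non-stellate samples 1 to 5 it was 28.88, 28.98, 30.25, 28.95 and 30.94. The stellate mean lay -1.21 cycles from the non-stellate mean, further than for any reference, with stellate samples earlier in 5 of 5 pairs (exact two-sided permutation p = 0.0317). With the pairs kept, the exact sign-flip permutation p was 0.0625, the smallest that 5 pairs allow. The difference was -0.55 cycles without non-stellate 3 and 5 (exact permutation p = 0.143). It did not pass without stellate 1, 2, 4 or 5 or without non-stellate 5 either, when it was -1.16, -1.13, -1.18, -1.11 and -0.88 cycles (exact permutation p from 0.0635 to 0.0873). Read against this median, each of the 5 references had a positive mean difference, meaning later in stellate cells, where each raw difference had been negative.

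For U6 the Ct minus median miRNA Ct was -10.71 ± 0.671 in stellate and -11.11 ± 0.739 in non-stellate samples (SD, n = 5 each). The difference was 0.39 cycles (95% interval -0.59 to 1.37, limma adjusted p = 0.615). snoRNA135 was at -2.91 ± 0.425 and -3.40 ± 0.464, a difference of 0.50 cycles (95% interval -0.19 to 1.19, limma adjusted p = 0.453). It was later in stellate cells in 4 of 5 pairs.

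U87 was at -8.18 ± 0.575 in stellate and -8.56 ± 0.351 in non-stellate samples (SD, n = 5 each), which is 0.38 cycles later (95% interval -0.34 to 1.10, limma adjusted p = 0.529). Y1 was at -2.73 ± 0.794 and -3.44 ± 0.569, which is 0.71 cycles later (95% interval -0.26 to 1.67, limma adjusted p = 0.445). snoRNA202 had the widest difference, 1.18 cycles (95% interval -0.61 to 2.97, limma adjusted p = 0.476), and was later in stellate cells in 5 of 5 pairs, by 0.32 to 2.43 cycles. Its exact sign-flip permutation p was 0.0625, the smallest that 5 pairs allow. The sign-flip permutation p was 0.125 for snoRNA135 and Y1, 0.25 for U87 and 0.4375 for U6.

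None of the 5 references passed an adjusted p of 0.05 in this comparison (0 of 5, where limma called 0% of all 227 assays tested). Across the 227 assays, 28 had an unadjusted limma p under 0.05, and the exact permutation test gave 29 at that level and 0 after adjustment. Leaving out non-stellate 3 and 5, the differences were 0.12 cycles for U6, 0.20 for snoRNA135, 0.27 for U87, 0.59 for Y1 and 0.91 for snoRNA202. The intervals leave room for differences of more than 1 cycle in each reference, so these data do not show that the references are equal between the sorted groups.

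**Figure D3:**
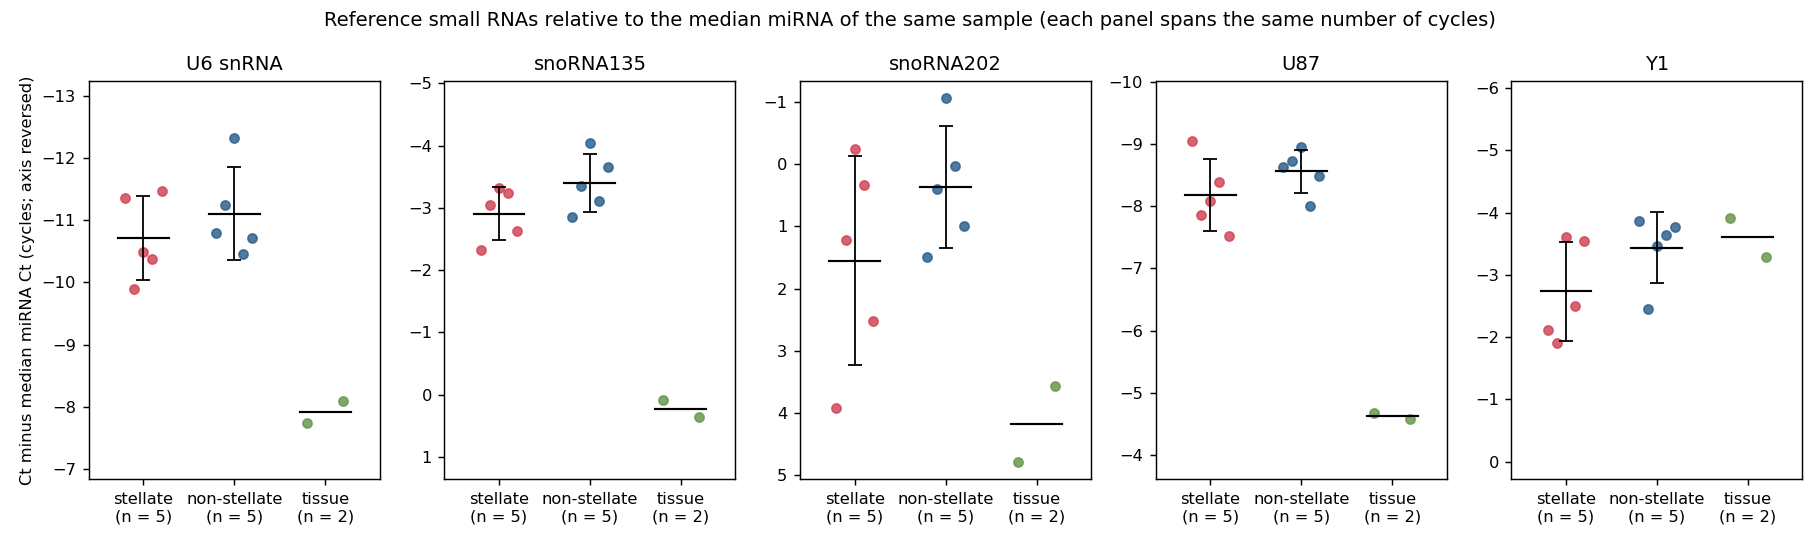
Ct minus the median miRNA Ct of the same sample in cycles (reversed axis, equal span in each panel) by group, with points for samples, a line at the group mean and bars of 1 SD for the sorted groups. In tissue U6, snoRNA135 and U87 lie below every sorted sample, snoRNA202 overlaps stellate 1, and 1 of the 2 Y1 values lies within the sorted range.

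The sorted groups were also compared with 1 reference as the scale for the others. With U6 as the scale, the stellate minus non-stellate difference was -0.014 cycles for U87 (95% interval -1.16 to 1.13, limma adjusted p = 0.996) and 0.10 cycles for snoRNA135 (limma adjusted p = 0.983). It was 0.31 cycles for Y1 (limma adjusted p = 0.902) and 0.79 cycles for snoRNA202 (limma adjusted p = 0.790). The choice of reference moved the median difference of the 222 miRNAs. It was -0.46 cycles scaled to U6, -0.45 to U87, -0.56 to snoRNA135, -0.77 to Y1 and -1.25 to snoRNA202, against -1.28 with no scaling. With each of these scales limma called 0 assays, with 16 at an unadjusted p under 0.05 for U6, 32 for U87, 32 for snoRNA135, 27 for Y1 and 21 for snoRNA202, against 70 with no scaling.

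How closely each reference followed the miRNAs was described by the SD of Ct minus median miRNA Ct over the 10 sorted samples, with no test. U87 and snoRNA135 followed it most closely, at 0.492 and 0.494 cycles, and 45 of the 176 miRNAs had a smaller SD than either. U6 had an SD of 0.697 and Y1 of 0.750, with 87 and 101 miRNAs below them, near the miRNA median of 0.708. The U6 value averages 4 wells, where the other references and the miRNAs have 1, so its SD holds less well error than theirs. snoRNA202 had an SD of 1.44, and 166 of the 176 miRNAs were below it.

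Subtracting the miRNA median narrowed the spread of 4 references and widened that of snoRNA202. The raw SD of U6 was 1.05 cycles, of U87 0.934, of Y1 0.833 and of snoRNA135 0.668, and that of snoRNA202 was 1.23. The U6 value rested in part on the sample with the disagreeing wells, and without non-stellate 3 its SD to the miRNA median was 0.517. Without stellate 1 the SD of snoRNA202 was 1.06, still the widest of the 5.

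By the SD of the difference between 2 references over the sorted samples, the closest were snoRNA135 and U87, at 0.616 cycles, and U6 and U87, at 0.627. snoRNA135 and Y1 followed at 0.757 and U6 and snoRNA135 at 0.770. The widest were U6 and snoRNA202, at 1.60, and snoRNA202 and U87, at 1.52. Averaged over its 4 partners this SD was 0.795 for snoRNA135, 0.930 for U87, 0.978 for U6, 1.00 for Y1 and 1.38 for snoRNA202.

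Several miRNAs that are used elsewhere as normalizers followed the miRNA median more closely than the references did. Of 9 such miRNAs, 6 had a smaller SD than snoRNA135 and U87, as did 45 of all 176 miRNAs. A smaller SD than U6, which averages 4 wells, was seen in 8 of the 9 and in 87 of the 176. The list was chosen with earlier results of these data known. miR-484 had 0.201 cycles, miR-103 0.318 and miR-26a 0.357, and the widest of the 9 was miR-16, at 0.737. The median over the 9 was 0.440, against 0.697 over the 5 references. The miRNAs share a class with the median they are set against, which the references do not. None of the 9 was called between the sorted groups (0 of 9), and their differences ran from -0.48 to 0.97 cycles.

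**Figure D4:**
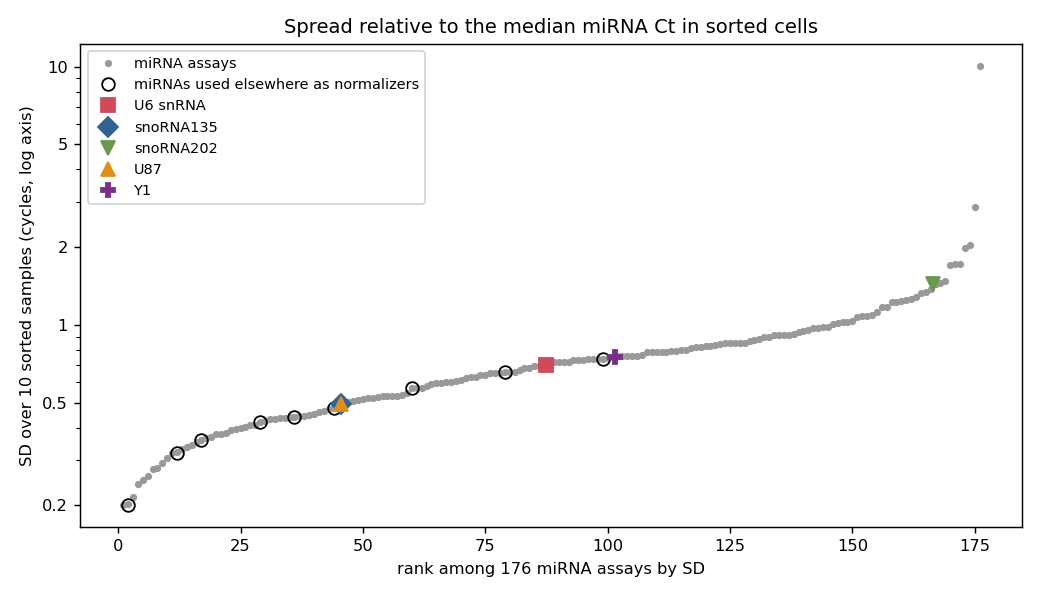
SD over the 10 sorted samples of Ct minus median miRNA Ct in cycles (log axis) for 176 miRNA assays in order of SD, with the 9 miRNAs used elsewhere as normalizers circled and the 5 references as coloured symbols. snoRNA135 and U87 fall at 0.49, U6 and Y1 near the middle, and snoRNA202 near the wide end.

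The miRNAs whose Ct ran most nearly parallel to each reference over the sorted samples were taken as the 3 with the smallest SD of the difference. For U6 they were miR-193b (SD 0.489 cycles), miR-210 (0.507) and miR-194 (0.516). For snoRNA135 they were miR-744 (0.286), miR-30e (0.326) and let-7b (0.370). For U87 they were miR-484 (0.389), miR-320 (0.409) and miR-193b (0.414). Over all 176 miRNAs the median of this SD was 0.965 for U6, 0.796 for snoRNA135 and 0.891 for U87.

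The miRNAs nearest to snoRNA202 had wider SDs of the difference than those nearest to the other references, but snoRNA202 itself varied more. Its SD to the miRNA median was 1.44 cycles, and that of miR-467b was 1.34. Its nearest were miR-467b (SD 0.623 cycles), miR-455 (0.768) and miR-197 (0.834), and the median over all miRNAs was 1.53. The 3 miRNAs nearest to Y1 were all of the let-7 family, let-7c (0.507), let-7i (0.547) and let-7d (0.557), where the median over all miRNAs was 0.956. The card also held other let-7 assays, and whether this exceeds the share of the family was not tested. The let-7 sequences are shown because 1 seed is shared by miRNAs that lay nearest to different references, let-7b to snoRNA135 and the other 3 to Y1. The mature sequences, from RefSeq on build GRCr8, are written 5′ to 3′ with the seed, bases 2 to 8, in capitals.
let-7c: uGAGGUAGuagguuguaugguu
let-7i: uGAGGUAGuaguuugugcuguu
let-7d: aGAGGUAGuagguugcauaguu
let-7b: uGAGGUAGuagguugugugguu

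In tissue all 5 references read before the mean of the sorted cells by raw Ct, by unequal amounts. snoRNA135 read 23.80 and 24.05, U87 read 19.03 and 19.11, snoRNA202 read 28.49 and 27.26, and Y1 read 19.78 and 20.41. Y1 came 5.81 cycles earlier than the mean of the 10 sorted samples, with 4.02 cycles between its later tissue value and the earliest sorted value. U6 came 2.31 cycles earlier, snoRNA202 2.08, snoRNA135 1.91 and U87 1.55. For U87 and snoRNA202 the gap to the nearest sorted sample was 0.01 and 0.10 cycles. Both tissue values lay before all sorted values in 5 of 5 references, as they did in 89.0% of all 227 assays.

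The exact two-sided permutation p for these raw shifts was 0.0152 for Y1 and snoRNA135, the smallest that 66 splits allow, 0.0303 for U6 and snoRNA202 and 0.0606 for U87. The call of snoRNA202 was lost when stellate 1 or 5 or non-stellate 1 or 5 was left out (exact permutation p from 0.0545 to 0.0727), and U87 passed without stellate 1 or non-stellate 5 (exact permutation p = 0.0364). The difference between the tissue samples had an SD of 0.350 cycles over 172 miRNAs. The difference of a pair of U6 wells gives 0.518 cycles, from a well SD pooled over all 12 samples, most of them sorted. The tissue cards had smaller U6 well SDs, 0.0309 and 0.286. These values therefore do not show that the tissue samples differ by less than their own well error. Averaged as 1 sample, tissue gave exact permutation p values of 0.0909 for Y1 and snoRNA135, the smallest that 11 splits allow.

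Across the 222 tested miRNAs the median shift from sorted cells to tissue was -5.33 cycles, with quartiles at -6.78 and -3.39. These had at most 3 undetermined wells among the 10 sorted samples. MiRNAs determined mainly in tissue were therefore left out, and the ranks below hold among the 222. The shift of Y1 fell in the middle of the miRNAs, as 127 of 222 moved less. U6 and the small nucleolar RNAs fell near the edge, with 30 of 222 miRNAs moving less than U6, 27 less than snoRNA202, 22 less than snoRNA135 and 18 less than U87. Location in the cell was not measured, and its part in these shifts was not tested.

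**Figure D5:**
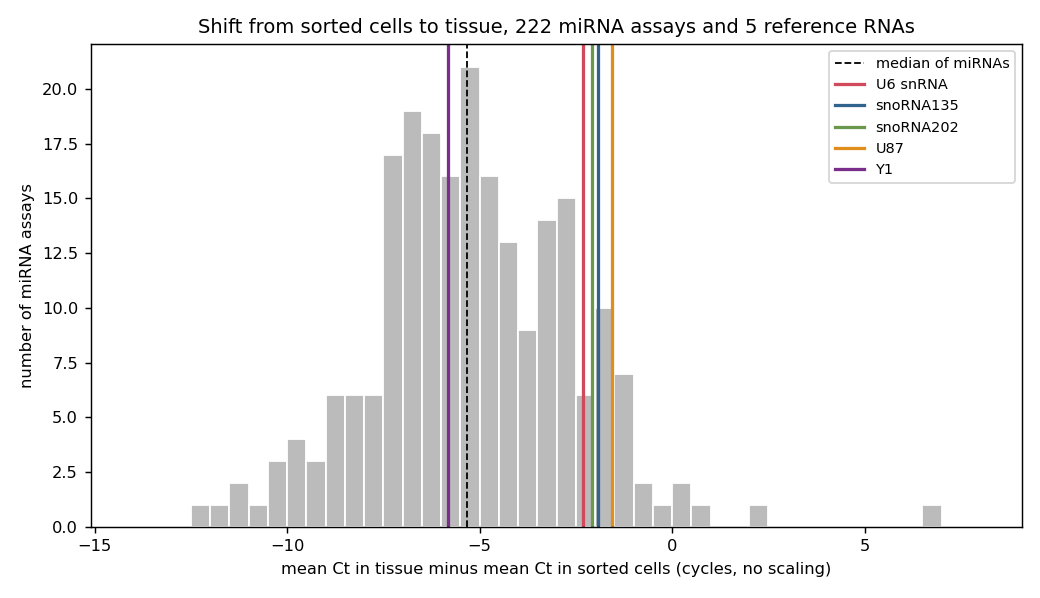
Mean Ct in tissue minus mean Ct in the 10 sorted samples, in cycles with no scaling, as a histogram of 222 miRNA assays, with coloured lines for the references and a dashed line at the miRNA median of -5.33. Y1 lies at -5.81 beside the miRNA median, and the other 4 references lie between -2.31 and -1.55.

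Relative to the median miRNA of the same sample, 4 of the 5 references were called later in tissue, where 26.4% of all 227 assays were, and Y1 was not called. U87 was at -4.67 and -4.58 in tissue against -9.04 to -7.52 in sorted samples, a difference of 3.74 ± 0.371 cycles (SE, limma adjusted p = 1.52e-05). snoRNA135 was at 0.09 and 0.36 against -4.04 to -2.32, a difference of 3.38 ± 0.356 cycles (SE, limma adjusted p = 2.23e-05). U6 was at -7.74 and -8.10 against -12.33 to -9.89, a difference of 2.99 ± 0.511 cycles (SE, limma adjusted p = 0.000652). For these 3 references no tissue value overlapped a sorted value, which held in that direction for 26.9% of all 227 assays.

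snoRNA202 was at 4.79 and 3.57 in tissue and reached 3.91 in stellate 1, so its groups overlapped. Its difference was 3.22 ± 0.956 cycles (SE, limma adjusted p = 0.0163). It passed with both tissue samples, but was 2.61 cycles without tissue 1 (limma adjusted p = 0.169) and did not pass with the tissue samples averaged (limma adjusted p = 0.0965). In these fits 1 tissue sample stands for its group and is assumed to vary like the sorted samples. Y1 was at -3.92 and -3.29 in tissue, within its sorted range of -3.87 to -1.91 for 1 of the 2 samples, and its difference was -0.52 ± 0.509 cycles (SE, 95% interval -1.64 to 0.61, limma adjusted p = 0.418).

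Read against one another, U6 and the small nucleolar RNAs had shifts from sorted cells to tissue that lay within 1 cycle of each other, though the intervals were wide. Against the mean of the other 4 references, Y1 among them, snoRNA135 and U87 passed as later in tissue, by 1.02 cycles (limma adjusted p = 0.0151) and 1.48 cycles (limma adjusted p = 0.0412). With U6 as the scale, the tissue minus sorted difference was 0.39 cycles for snoRNA135 (95% interval -1.05 to 1.83, limma adjusted p = 0.630). It was 0.23 for snoRNA202 (95% interval -2.17 to 2.63, limma adjusted p = 0.853) and 0.76 for U87 (95% interval -0.53 to 2.04, limma adjusted p = 0.291). Y1 was 3.50 cycles earlier in tissue on this scale (95% interval -5.11 to -1.90, limma adjusted p = 0.00132), a scale on which 61.5% of the 226 assays were called earlier.

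Y1 was also earlier when set against U87, by 4.26 cycles (limma adjusted p = 0.000206), against snoRNA135, by 3.90 (limma adjusted p = 0.0001), and against snoRNA202, by 3.74 (limma adjusted p = 0.0136). The choice of reference decided the direction of the miRNA calls. With U6 as the scale limma called 138 miRNAs earlier and 3 later in tissue, with U87 164 and 2, with snoRNA135 157 and 3, and with snoRNA202 119 and 3. With Y1 it called 17 earlier and 51 later, and with the miRNA median 53 and 56. The median difference of the 222 miRNAs was -3.02 cycles scaled to U6 and 0.49 scaled to Y1, so a difference read on 1 of these scales holds relative to that shift.

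The partners found in sorted cells did not all keep their distance in tissue. miR-320 stood 6.40 cycles after U87 in sorted cells and 6.41 in tissue, miR-210 stood 8.91 and 8.97 cycles after U6, and let-7b stood 3.21 and 3.38 cycles before snoRNA135. In contrast miR-30e stood 2.96 cycles after snoRNA135 in sorted cells and 1.95 before it in tissue, and miR-194 stood 14.63 and 10.34 cycles after U6. let-7c preceded Y1 by 4.16 cycles in sorted cells and by 0.20 in tissue. let-7i and let-7d preceded Y1 by 0.82 and 0.79 cycles in sorted cells and followed it by 0.61 and 1.35 in tissue. Partners of the same reference thus differed in whether the distance held, and no test was made, since they were picked for their closeness in the sorted samples.

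Of the 9 miRNAs used elsewhere as normalizers, 3 were called later and 1 earlier in tissue relative to the miRNA median, and 5 were not called, where 26.4% of all 227 assays were called later and 23.3% earlier. miR-484 was 3.33 cycles later (limma adjusted p = 5.72e-06), between U6 and U87 in size, while miR-191 moved by 0.03 (limma adjusted p = 0.951) and miR-103 by 0.20 (limma adjusted p = 0.505). The markers of myelin and blood that were undetermined in some or all sorted samples were determined in tissue, and their part in these shifts was not tested.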

How the data were processed

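Groups came from sample titles, sources and fluorescence. Values come from TaqMan rodent card A, run after reverse transcription and pre-amplification, and the authors deposited them as raw Ct (log2 scale). Sorted RNA entered by volume because of its low concentration. The volumes given are 2.5 µl of cDNA into the pre-amplification and 3 µl of its product. The authors' deposited normalized table equals Ct minus the mean of the 4 U6 wells (largest difference 7.11e-15). Their deposited fold-change table (a ratio per replicate number) and limma table (fold changes, p-values) hold comparisons and were not used. The labels name mirVana for tissue RNA and RNAqueous Micro for sorted cells, and the methods name another kit for whole tissue. Card B was not analysed here.

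MiRNA assays with no more than 3 undetermined wells among 10 sorted samples were tested (222 of 375) with the 5 references, after subtracting each sample's median Ct over the 176 miRNAs determined in all 12. limma 3.58.1 in R 4.3.3 (lmFit, eBayes, two-sided, Benjamini-Hochberg over all assays, threshold 0.05) compared the sorted groups in 10 samples and tissue with their mean in 12. Its code was also run on simulated data with independent normal errors, no pairs and the same spread in tissue as in sorted samples. That run does not test whether these settings hold for the data. Single values were compared by exact permutation in Python 3.11.15, and pairs by sign-flip permutation (32 patterns, smallest p 0.0625). No count gives the depth of a card, so Ct and determined wells stand in for it, and single wells limit the precision. P-values measure the spread between these samples, which in the limma fits of tissue comes mostly from the sorted samples.

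The design text gives 5 biological replicates sorted into labelled and unlabelled cells. Each deposited ratio sets a stellate sample against the non-stellate sample of its number. Equal numbers were therefore treated as pairs in the pair counts, the sign-flip permutation and the replicate block. The main limma fits and the exact permutation of the sorted groups did not use the pairing. Deviations from group means correlated within pairs 1 to 5 at 0.331, 0.119, 0.256, 0.155 and 0.0743, and at -0.0481 for other numbers. Such deviations cancel within a group, so the value for other numbers follows largely from the paired values. It is no separate benchmark for the pairing. Named assays were the 5 references, the 3 miRNAs nearest each, 9 normalizers and marker miRNAs. The members and lists were chosen with earlier results of these data known. Alternatives changed the scale, the block, the undetermined wells, the filter and the samples. Averaging the tissue samples, and the alternatives for the median miRNA Ct, were added after seeing the data.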

Additional observations from a re-analysis of the deposited data

Results flagged for a closer look

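Values that stood apart from the other 4 of their group by Dixon's test were found in 4 of 24 groups of 5, where chance gives about 1 in 20. Y1 in stellate 5 had a raw Ct of 24.43, against 25.75 to 26.14 in the other stellate samples. Y1 minus median miRNA Ct in non-stellate 2 was -2.46, against -3.87 to -3.46 in the other non-stellate samples. The median miRNA Ct of stellate 3 was 29.51, against 27.96 to 28.26. The SD of the 4 U6 wells of non-stellate 3 was 0.817 cycles, against 0.172 to 0.287. Outside the comparisons, the plant control assay, which has no counterpart in rat RNA, gave Ct 34.06 in stellate 2 and was undetermined in the other 11 samples.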

How the results depend on the processing

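Scaling decided the direction of the differences between stellate and non-stellate cells, none of which passed. With no scaling they were -0.82 cycles for U6, -0.72 for snoRNA135, -0.031 for snoRNA202, -0.83 for U87 and -0.51 for Y1, since the miRNA median itself differed by -1.21. Against snoRNA202 they were -0.79 for U6, -0.68 for snoRNA135, -0.80 for U87 and -0.48 for Y1. Against Y1 they were -0.31 for U6, -0.21 for snoRNA135, -0.33 for U87 and 0.48 for snoRNA202. Against snoRNA135 they were -0.10 for U6, -0.12 for U87, 0.68 for snoRNA202 and 0.21 for Y1, and U87 against U6 was -0.014. Against the mean of the other 4 references they were -0.30 for U6, -0.17 for snoRNA135, -0.31 for U87, 0.69 for snoRNA202 and 0.092 for Y1. In 25 other fits limma called 0 assays. With the replicate block, which treats same-numbered samples as pairs, the differences were the same (0.39 for U6, 0.50 for snoRNA135, 1.18 for snoRNA202, 0.38 for U87 and 0.71 for Y1), 0 assays passed and 50 had an unadjusted p under 0.05, and no call on a reference or assay changed. The median miRNA Ct, at -1.21 cycles, passed without the pairing (exact p = 0.0317) and not with it (sign-flip permutation p = 0.0625). Without non-stellate 3 and 5 it was -0.55, and with a sample left out -1.49 to -0.88. With a sample left out the raw difference ran from -1.15 to -0.38 for U6, from -0.89 to -0.45 for snoRNA135, from -0.57 to 0.46 for snoRNA202, from -1.13 to -0.48 for U87 and from -0.80 to -0.20 for Y1, and that of U6 relative to the miRNA median from 0.089 to 0.58. Without non-stellate 3 and 5 the raw difference was 0.36 for snoRNA202 and 0.041 for Y1.

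Between tissue and sorted cells the direction also followed the scale. With no scaling the differences were -2.31 for U6, -1.91 for snoRNA135, -2.08 for snoRNA202, -1.55 for U87 and -5.81 for Y1. Against U87 they were -0.76 for U6, -0.36 for snoRNA135, -0.52 for snoRNA202 and -4.26 for Y1. Against snoRNA135 they were -0.39 for U6, -0.16 for snoRNA202, 0.36 for U87 and -3.90 for Y1. Against snoRNA202 they were -0.23 for U6, 0.16 for snoRNA135, 0.52 for U87 and -3.74 for Y1. Against U6 they were 0.39 for snoRNA135, 0.23 for snoRNA202, 0.76 for U87 and -3.50 for Y1. Against the mean of the other 4 they were 0.53 for U6, 0.82 for snoRNA202 and -3.85 for Y1, while snoRNA135 (1.02) and U87 (1.48) still passed. With both tissue samples averaged, snoRNA202 (3.22 relative to the miRNA median) no longer passed, nor did the raw differences of Y1 (-5.81), snoRNA135 (-1.91), U6 (-2.31) and snoRNA202 (-2.08), since 1 sample against 10 cannot reach 0.05. The 113 assays called between tissue and sorted cells became 203 with no scaling, 72 scaled to Y1, 193 with no filter on undetermined wells and 69 with the tissue samples averaged, and 66 to 122 with a sample left out, the fewest without tissue 1. With a sample left out, snoRNA202 ran from 2.61 to 3.83 relative to the miRNA median. The raw differences ran from -2.49 to -2.07 for U6, from -2.04 to -1.75 for snoRNA135, from -2.69 to -1.46 for snoRNA202, from -1.72 to -1.35 for U87 and from -6.13 to -5.50 for Y1. With 1 tissue sample none of these can reach 0.05, and among the sorted samples the call changed for snoRNA202 and U87. Without non-stellate 3 and 5 that of snoRNA202 was -1.92 and did not pass (exact permutation p = 0.0667), and that of U87 was -1.24 and passed (exact permutation p = 0.0444). The cause was not tested.

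The SD of Ct against the miRNA median became 1.05 for U6, 0.668 for snoRNA135 and 0.934 for U87 with no scaling, and 0.312 for snoRNA135 and 0.725 for U87 against the mean of the other 4. Without non-stellate 3 and 5 it was 0.362 for snoRNA135. With a sample left out it ran from 0.517 to 0.738 for U6 and from 1.06 to 1.52 for snoRNA202, and the well spread of U6 ran from 0.292 to 0.382. In all, 171 of the other values, leaving out 1 sample aside, kept their direction and side of the threshold or moved by less than their error. Of the rest, 30 reversed in direction, 18 became weaker, 9 became stronger and 6 spreads moved by more.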
